A study of Mus musculus with 4 samples.

Results

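Granzymes, perforin and other killer effector genes of lymphocytes, 9 genes in all, were followed across 4 blood libraries: Gzma, Gzmb, Gzmk, Gzmm, Prf1, Nkg7, Ctsw, Ifng and Fasl. They were chosen by name for their role in killing and are 9 of the 16152 gene names in the files. The names Gzma to Ifng are in the files as written here, 8 in all, and Fasl is there as Faslg, its synonym in RefSeq. Natural killer (NK) cells and cytotoxic T cells store granzymes and perforin in lytic granules and release them onto a target cell, where perforin opens the membrane and granzymes cleave proteins inside. The same cells can also kill through Fas ligand on their surface, and they secrete interferon gamma. In blood, NK cells hold ready-made granules, while naive T cells carry few killer transcripts until they are activated.

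The libraries were made from peripheral blood mononuclear cells (PBMC) of wild-type C57BL/6J mice aged 6 to 8 weeks, with droplet-based 5′ single-cell RNA sequencing. The pancreatitis libraries were taken 12 h, 24 h and 96 h after acute pancreatitis (AP) was started with 7 injections of cerulein, a cholecystokinin analogue that overstimulates acinar cells, and the control library at 0 h. The design text gives 168 h in place of 96 h for the last time, and how many animals entered a library is not given in the labels. A Ficoll gradient had separated the mononuclear cells from most granulocytes. Each time had 1 library, so a difference has no replicate check, no p-value is given, and every interval is a 95% interval that covers counting error only.

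The libraries held 11663 to 14569 cells and 60515205 to 79516878 unique molecular identifiers (UMIs), with a median of 3571 to 4861.5 UMIs per cell. After filters and removal of the 4.07% to 5.49% of cells that Scrublet marked as doublets, the numbers of cells kept at 0, 12, 24 and 96 h were 11410, 10464, 10908 and 12929. The barcode lists of 12 h and 24 h were identical (11663 barcodes shared) and that of the control library listed 4340 barcodes for 14569 columns, so each matrix column was read as a cell without its barcode. No cell had the same counts as a cell of another library (0 pairs). The gene names include 28 that begin with RT1- (histocompatibility genes as named in rats), 1691 that begin with AABR07 and 0 that begin with H2-, although the labels give mice. RT1- and AABR07 names belong to rat annotations, so the UMIs may have been counted on rat gene models, while the submitters' processing notes name a mouse build, and these sources do not settle it. Genes are therefore read here by their symbols alone. The species of the cells is taken from the labels and was not tested. Levels are given as CPM, in which all UMIs of a class in a library are scaled to the same total. They are compared between libraries and classes but not between genes, because they carry no length scale.

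Classes were set by marker UMIs in single cells, and none of the 9 genes was used for them. The T gate asked for at least 2 genes of Cd3d, Cd3e and Cd3g. The NK gate asked for 0 UMIs of those genes and at least 2 of the receptor genes Ncr1, Klrb1, Klrb1a, Klrb1c, Klrd1, Klre1, Klri1, Klri2 and Klrk1. The NK gate held 358 cells at 0 h, 743 at 12 h, 427 at 24 h and 504 at 96 h, which is 3.14%, 7.10%, 3.91% and 3.90% of the kept cells. The T gate held 3001, 1981, 2242 and 5482 cells, which is 26.3%, 18.9%, 20.6% and 42.4%. The class sums rest on 1833219 to 3294071 UMIs for NK-gated cells and 12124792 to 33277984 UMIs for T-gated cells. B-gated cells, 1902 to 2980 per library, serve as background, since B cells are not known for lytic granules. Markers that the gates did not use were checked next. The 9 NK markers that the files name, of 10 set, summed to 7095 to 7965 CPM in NK-gated cells and to 268 to 410 CPM in T-gated cells, and they include Tyrobp and Fcer1g, which myeloid cells share. The 8 T markers of 10 set summed to 1859 to 2241 CPM in T-gated cells, yet also to 1170 to 1754 CPM in NK-gated cells, where Cd8a stood at 687 to 926 CPM and Cd8b at 0.669 to 3.34 CPM. Of the NK transcription factors, Tbx21 stood at 137 to 196 CPM in NK-gated cells and Eomes at 3.82 to 13.1 CPM.

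The promoters of Gzmk, Gzmm and Nkg7 are shown because these 3 genes had the highest multiples of the control level in T-gated cells at 12 h among the members that reached 50 CPM there. The sequences are those of the mouse genes with these symbols and, given the rat names in the files, may not be those of the gene models that were counted. Each sequence is the 250 bases before the gene's annotated start in RefSeq, build GRCm38.p6, read 5′ to 3′ on the gene's strand. The windows are chr13:113180966-113181215 (minus strand) for Gzmk, chr10:79688770-79689019 (plus strand) for the first of the 2 listed starts of Gzmm, and chr7:43436888-43437137 (plus strand) for Nkg7. Capitals mark matches to TCACAC or its reverse GTGTGA, the core letters of T-box factors such as T-bet and Eomes, and to TGTGGT or its reverse ACCACA, the core letters of Runx factors.
Gzmk: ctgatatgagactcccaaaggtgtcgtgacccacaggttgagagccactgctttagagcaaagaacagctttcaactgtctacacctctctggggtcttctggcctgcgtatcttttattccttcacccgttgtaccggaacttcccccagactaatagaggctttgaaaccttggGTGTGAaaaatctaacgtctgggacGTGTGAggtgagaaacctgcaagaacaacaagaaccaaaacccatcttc
Gzmm: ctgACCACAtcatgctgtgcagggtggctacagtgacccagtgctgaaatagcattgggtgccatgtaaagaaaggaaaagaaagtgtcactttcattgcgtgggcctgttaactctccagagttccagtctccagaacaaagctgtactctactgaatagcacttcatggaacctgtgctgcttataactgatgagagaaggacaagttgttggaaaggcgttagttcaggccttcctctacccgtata
Nkg7: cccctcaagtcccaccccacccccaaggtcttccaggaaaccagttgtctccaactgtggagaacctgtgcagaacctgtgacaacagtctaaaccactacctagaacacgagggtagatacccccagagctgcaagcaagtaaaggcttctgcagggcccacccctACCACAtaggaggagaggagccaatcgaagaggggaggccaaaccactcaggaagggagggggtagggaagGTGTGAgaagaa
The Gzmk window holds 2 T-box matches and 0 Runx matches, the Gzmm window 0 and 1, and the Nkg7 window 1 and 1, and no match overlaps another. The window of the second listed start of Gzmm, chr10:79693576-79693825 (plus strand), holds 1 T-box match and 0 Runx matches, so the letters found for Gzmm depend on the start. Among the 32851 promoter windows of the same length, 12.3% hold the T-box letters and 14.0% the Runx letters. A match is a description of letters and not a binding site. Promoters of 8 of the 9 genes were found under their symbols, and the window of Ctsw is not used here.

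In NK-gated cells 8 of the 9 genes, all but Ifng, were detected well in every library, with 175 CPM (Faslg at 96 h) as the lowest level, and their levels in the pancreatitis libraries were within 1.5-fold of control with 1 exception, Ctsw at 96 h. A gene is called higher or lower here when its level was at least 1.5-fold that of the control library or that much below it, with at least 50 CPM in either library and 20 UMIs over both. This is a rule of size and not a test. At 12 h and at 24 h, 0 of the 8 genes that passed the minimum were called in either direction, and at 96 h 1 was higher (Ctsw) and 0 lower. Over all genes that passed, 3.05% were higher and 1.74% lower at 12 h, 2.77% and 2.69% at 24 h, and 2.62% and 1.43% at 96 h. The median log2 ratio of the 8 genes was 0.11 at 12 h, 0.03 at 24 h and -0.15 at 96 h, beside 0.03, -0.02 and 0.05 over all genes. Scaling by median of ratios would move NK-gated values by -0.055, 0.031 and -0.024 on the log2 scale at 12, 24 and 96 h. The side of 1 on which a ratio close to 1 falls can therefore depend on the scaling.

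Granzyme A, a tryptase-like protease and the most studied of the family together with granzyme B, showed the widest spread among the granzymes in NK-gated cells. At 0, 12, 24 and 96 h Gzma stood at 3217 CPM (3135 to 3300), 2817 (2760 to 2875), 3874 (3801 to 3948) and 2362 (2307 to 2418). The 24 h library was highest and the 96 h library lowest, and no 2 intervals overlapped. The 3 pancreatitis libraries, in order of time, stood at 0.876 (0.848 to 0.905), 1.20 (1.17 to 1.24) and 0.734 (0.709 to 0.760) times control, all within 1.5-fold. Cells with a Gzma UMI made up 76.3% of NK-gated cells at 0 h, 72.3% at 12 h, 78.0% at 24 h and 59.9% at 96 h. With each cell thinned to 1000 UMIs, to set the libraries to 1 depth, the shares were 65.4% (60.2 to 70.3), 62.7% (59.1 to 66.2), 70.4% (65.8 to 74.7) and 48.5% (44.1 to 53.0). The share at 96 h was thus below that of the other 3 libraries beyond counting error. In B-gated cells 1.07% to 1.38% had a Gzma UMI at the same depth, and median depths before thinning were 4181 to 5898 UMIs in NK-gated cells and 2819 to 3347 in B-gated cells. A single NK-gated cell held up to 178 UMIs of Gzma.

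Granzyme B cleaves after aspartate and activates caspases. In NK-gated cells Gzmb had 809, 821, 897 and 708 CPM at 0, 12, 24 and 96 h. The ratio to control was 1.01 (0.952 to 1.08), 1.11 (1.04 to 1.18) and 0.875 (0.818 to 0.936). The thinned share of cells with a Gzmb UMI was 49.7%, 46.8%, 49.9% and 44.1%, and the unthinned share 81.6%, 73.6%, 82.2% and 71.4%. Reads of near-identical copies can be split between Gzmb and the rows Gzmbl1, Gzmbl2 and Gzmbl3, which summed to 40.7 to 88.3 CPM in NK-gated cells. The level of Gzmb is therefore uncertain, and these sums do not bound by how much.

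Gzmk and Gzmm were present in nearly every NK-gated cell. Granzyme K, another tryptase-like member whose gene lies beside Gzma, had 4139, 4529, 4724 and 3851 CPM at 0, 12, 24 and 96 h. Its ratios to control were 1.09, 1.14 and 0.930. Granzyme M, which prefers to cut after methionine and leucine, had 4306, 4726, 3812 and 4477 CPM, with ratios of 1.10, 0.885 and 1.04. Between 96.6% and 97.9% of NK-gated cells had a Gzmk UMI and 97.5% to 98.6% a Gzmm UMI. After thinning these shares were 92.7% to 94.8% and 93.2% to 97.4%.

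Perforin, the pore-forming protein without which granzymes do not reach the target's cytosol, had 2669, 2575, 2678 and 2255 CPM in NK-gated cells at 0, 12, 24 and 96 h. The ratio to control was 0.965, 1.003 and 0.845, so the 96 h library was lowest. Nkg7, a membrane protein of the granules that is needed for efficient degranulation, had the narrowest spread of the 9, with 3267, 3500, 3371 and 3413 CPM and ratios of 1.07, 1.03 and 1.04. After thinning, 77.3% to 83.3% of NK-gated cells had a Prf1 UMI and 93.02% to 95.1% an Nkg7 UMI, and before it 96.0% to 97.4% and 97.5% to 98.8%.

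Cathepsin W, a cysteine protease of the papain family that is made in NK cells and CD8 T cells, was the member that was higher in NK-gated cells at 96 h. At 0, 12, 24 and 96 h Ctsw stood at 267 CPM (244 to 291), 369 (348 to 390), 243 (225 to 262) and 539 (513 to 566). These are 1.38 (1.24 to 1.54), 0.910 (0.809 to 1.02) and 2.02 (1.83 to 2.24) times control for the pancreatitis libraries in order of time. Cells with a Ctsw UMI made up 33.5%, 36.7%, 31.9% and 57.7% of NK-gated cells, and 18.4%, 21.7%, 15.1% and 31.2% after thinning, against 0.485% to 1.41% of thinned B-gated cells. At 96 h both the level and the share were above those of the other 3 libraries beyond counting error. T cell markers outside the gates also varied between the NK-gated sums. The 8 T markers named in the files summed to 1332, 1642, 1170 and 1754 CPM, highest at 96 h as well. Cd3 genes are at 0 by the gate. Cd8b stood at 0.669 CPM at 96 h and 1.64 in the control library, on too few UMIs to order the libraries. The part of T cells in the Ctsw level was not tested.

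Fas ligand, which kills through the death receptor Fas, is named Faslg in the files. In NK-gated cells it stood at 217, 266, 220 and 175 CPM at 0, 12, 24 and 96 h, with ratios of 1.22 (1.09 to 1.38), 1.01 (0.890 to 1.15) and 0.805 (0.706 to 0.920). Thinned shares of cells with a Faslg UMI were 18.7%, 22.0%, 21.9% and 15.3%, and unthinned shares 57.0%, 57.1%, 67.9% and 49.6%. Ifng, the gene of the main macrophage-activating cytokine of NK and T cells, was close to undetected. NK-gated cells held 6, 5, 11 and 0 UMIs of Ifng in the libraries in order of time, never more than 1 in a cell. The 0 of 504 cells at 96 h allow a share of cells with an Ifng UMI of up to 0.595%, which does not bound the cells that express the gene. Against the control library the interval of the ratio held 1 at 12 h (0.112 to 1.82) and at 24 h (0.409 to 3.97). At 96 h it ran from 0 to 0.521, below 1 by counting error, on 6 UMIs in all.

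**Figure D1:**
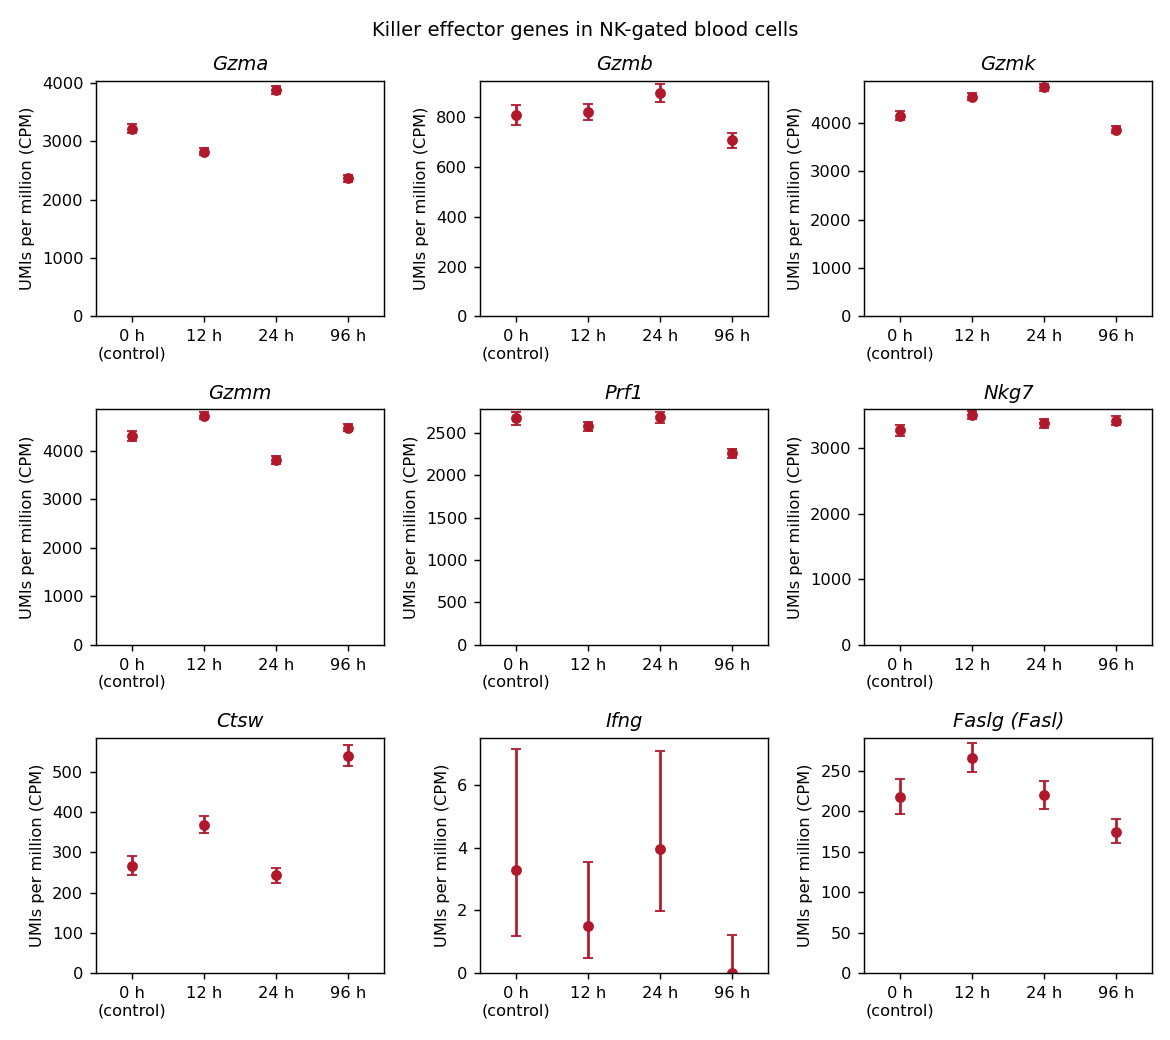
Level of each gene in NK-gated cells of the 4 libraries, in CPM (linear axes that start at 0, a scale of its own for each gene), with exact Poisson 95% intervals as bars. Ctsw at 96 h (539 CPM, against 267 in the control library) is the value that passed the 1.5-fold rule, and Gzma is lowest at 96 h (2362 CPM).

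The genes did not sit evenly over single NK-gated cells. At 1000 UMIs per cell, Ctsw was found in few cells that had a Gzma UMI, namely 5.56% of 234 cells at 0 h, 6.67% of 465 at 12 h, 4.01% of 299 at 24 h and 8.20% of 244 at 96 h. Among cells without a Gzma UMI it was found in 42.7% of 124, 46.9% of 277, 41.3% of 126 and 52.9% of 259. Gzmb went the other way, with 66.2%, 63.4%, 65.2% and 69.3% of the cells with Gzma against 18.5%, 18.8%, 13.5% and 20.5% of the cells without. Prf1 was found in 91.0% to 94.3% of cells with Gzma and 57.1% to 64.5% of cells without. Nkg7 differed less, with 96.6% to 99.0% against 85.7% to 91.5%. The order was the same in each of the 4 libraries for these 4 genes. Cells of a library are not replicates of a condition, so these shares are a description.

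**Figure D2:**
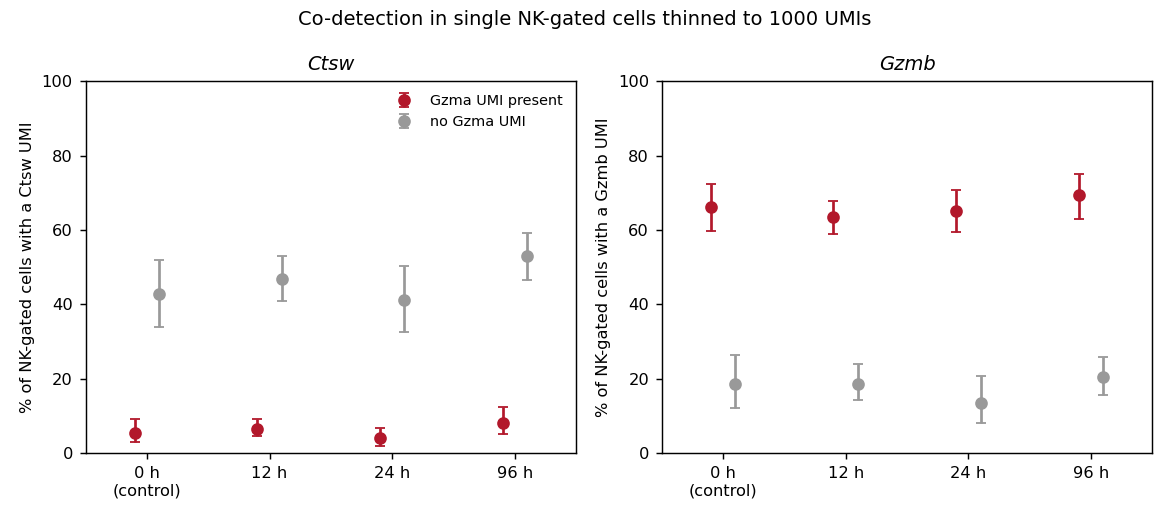
Percent of NK-gated cells, thinned to 1000 UMIs, that had a Ctsw UMI or a Gzmb UMI, for cells with and cells without a Gzma UMI, by library, with exact binomial 95% intervals as bars. Ctsw lies at 4.01% to 8.20% in cells with Gzma and at 41.3% to 52.9% in cells without, and Gzmb at 63.4% to 69.3% and 13.5% to 20.5%.

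Splitting the NK-gated cells by a Gzma UMI before thinning shows the levels in each kind. Cells without one were 23.7% of NK-gated cells at 0 h, 27.7% at 12 h, 22.0% at 24 h and 40.1% at 96 h. Cells with Gzma had a median of 4597, 4050, 5711 and 5276.5 UMIs and cells without 5005, 4574.5, 6688.5 and 5671 UMIs, so the cells without were not the shallower ones. Prf1 stood at 3228, 3230, 3302 and 3212 CPM in cells with Gzma and at 967, 1094, 785 and 972 CPM in cells without. At 96 h the Prf1 ratio to control was 0.995 in cells with Gzma and 1.005 in cells without, beside 0.845 in all NK-gated cells. Faslg stood at 255 to 351 CPM in cells with Gzma and at 66.6 to 77.1 CPM in cells without, while Gzmm differed little, with 3927 to 4857 CPM against 3465 to 4430 CPM. Ctsw stood at 109, 174, 107 and 297 CPM in cells with Gzma and at 747, 809, 654 and 865 CPM in cells without. Its ratio to control at 96 h was 2.73 (2.27 to 3.29) in cells with Gzma and 1.16 (1.02 to 1.31) in cells without.

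Some genes outside the 9 differed between the same cells, and those named first were picked after their values were seen. Klrg1, an inhibitory receptor of mature NK cells, stood at 266 to 340 CPM in cells with Gzma and at 87.7 to 113 CPM in cells without. Zeb2, a transcription factor of terminal NK maturation, stood at 82.6 to 105 CPM and at 14.5 to 46.3 CPM. Lef1, a factor of less mature lymphocytes, ran the other way at 11.9 to 26.3 CPM and 41.9 to 86.9 CPM. Serpinb6b, a serpin related to inhibitors of granule proteases, stood at 214 to 340 CPM in cells with Gzma and at 482 to 591 CPM in cells without. Others overlapped between the kinds of cell. Ncr1 stood at 219 to 318 CPM in cells with Gzma and at 167 to 253 CPM in cells without, and the T marker Trbc2 at 166 to 238 CPM and 207 to 249 CPM.

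In T-gated cells the levels were far lower than in NK-gated cells for every member but Ctsw and the barely detected Ifng, and Gzmk, Gzmm and Nkg7 were several times the control level at 12 h. At 12 h 4 of the 5 members that passed the minimum were higher (Gzmk, Gzmm, Nkg7 and Ctsw) and 0 lower, where 4.31% of all genes were higher and 2.13% lower. At 24 h 0 of 4 were called, with a background of 1.18% higher and 3.24% lower. At 96 h 2 of 5 were higher (Gzmm and Nkg7) and 0 lower, with 0.611% and 0.713%. With at most 5% mitochondrial UMIs, a limit that few control T-gated cells met, more members were called at 24 h and at 96 h. Gzmk and Nkg7 were below 50 CPM in the control library and passed the minimum only through a pancreatitis library, so for them being called was partly set by the rule. The other 4 members, Gzma, Gzmb, Ifng and Faslg, did not reach 50 CPM in any library. Median log2 ratios of the members that passed were 1.89, 0.24 and 0.41, beside 0.09, -0.09 and 0.04 over all genes. Scaling by median of ratios would move T-gated values by -0.11 at 12 h, 0.13 at 24 h and 0.037 at 96 h on the log2 scale.

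In T-gated cells at 0, 12, 24 and 96 h, Gzmm stood at 78.3 CPM (74.0 to 82.8), 308 (298 to 318), 116 (111 to 122) and 190 (185 to 195). All 3 pancreatitis libraries were above control, with ratios of 3.93 (3.68 to 4.19), 1.49 (1.38 to 1.60) and 2.43 (2.28 to 2.58). Gzmk stood at 41.0 CPM (37.9 to 44.3), 207 (199 to 215), 27.6 (25.0 to 30.3) and 54.5 (52.1 to 57.1). The 12 h library was highest, 5.04-fold control (4.62 to 5.50), and the 24 h library lowest, at 0.672 times control (0.593 to 0.761), a time at which Gzmk did not reach the 50 CPM minimum. At 96 h the ratio was 1.33 (1.22 to 1.46).

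Nkg7 stood at 46.3, 172, 61.9 and 80.9 CPM in T-gated cells at 0, 12, 24 and 96 h, with ratios of 3.72 (3.41 to 4.05), 1.34 and 1.75 (1.61 to 1.90). Prf1 stood at 80.4, 109, 83.8 and 103 CPM, with ratios of 1.36, 1.04 and 1.28, none past 1.5-fold. Ctsw stood at 217, 353, 223 and 264 CPM, with ratios of 1.62 (1.55 to 1.70), 1.03 and 1.22. Gzma stood at 18.5, 40.2, 28.5 and 21.2 CPM, Gzmb at 6.44, 23.3, 6.41 and 7.57 CPM, and Faslg at 8.83, 14.3, 3.04 and 6.82 CPM. None of these reached the 50 CPM minimum, yet some ratios were clear of 1 by counting error. At 12 h they were 2.17 (1.87 to 2.52) for Gzma, 3.61 (2.87 to 4.58) for Gzmb and 1.62 (1.29 to 2.03) for Faslg. At 24 h Gzma stood at 1.54 times control (1.32 to 1.79) and Faslg at 0.344 (0.241 to 0.483). For Gzma at 0 h and 96 h the T level was below that of B-gated cells, 26.5 and 24.5 CPM, although 1 B-gated cell held 98 of the 176 B UMIs at 0 h. In T-gated cells with at least 2 NK receptor genes, a class described below, Gzma stood at 69.5, 117, 122 and 67.9 CPM, above the B level in every library. The thinned share of cells with a Gzma UMI was 1.10%, 1.92%, 0.849% and 1.13% in T-gated cells and 1.26%, 1.38%, 1.27% and 1.07% in B-gated cells, so the shares did not differ beyond counting error in any library. The highest T-gated cell held 56 of the 294 Gzma UMIs at 0 h, 67 of 488 at 12 h, 74 of 431 at 24 h and 52 of 706 at 96 h. Ifng had 2, 8, 5 and 3 UMIs in T-gated cells. The ratio to control was 5.23 (1.04 to 50.5) at 12 h, an interval that excludes 1 but rests on 10 UMIs in all, and the intervals at 24 h and 96 h held 1.

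The share of T-gated cells with a UMI moved with the levels. Thinned to 1000 UMIs, 3.63% (2.99 to 4.36), 12.1% (10.7 to 13.6), 4.64% (3.81 to 5.60) and 7.43% (6.75 to 8.15) of T-gated cells had a Gzmm UMI, where B-gated cells had 1.84%, 3.35%, 1.53% and 2.79%. The unthinned shares were 9.30%, 23.1%, 11.3% and 16.1% in T-gated cells and 4.94%, 8.33%, 3.89% and 7.65% in B-gated cells, whose median depth of 2819 to 3347 UMIs was below the 4976 to 6540.5 of T-gated cells. For Gzmk the thinned shares were 1.80%, 7.67%, 0.893% and 2.59% in T-gated cells and 1.46%, 2.58%, 0.949% and 2.22% in B-gated cells. The unthinned Gzmk shares were 5.83%, 15.1%, 4.33% and 7.99%, and 5.28%, 7.39%, 3.21% and 6.17% in B-gated cells. The Gzmk level in T-gated cells was 1.495, 8.36, 2.86 and 1.98 times that in B-gated cells at 0, 12, 24 and 96 h, with no interval holding 1. At 24 h the thinned shares did not show this order, so none is read from them. For Nkg7 the thinned shares were 2.43%, 8.43%, 2.95% and 3.996% in T-gated cells and 1.505%, 1.93%, 0.738% and 1.65% in B-gated cells, and before thinning 8.30%, 19.5%, 9.99% and 12.1% against 4.60%, 6.40%, 2.47% and 4.83%. Ctsw was found in 15.8%, 23.0%, 14.6% and 16.6% of thinned T-gated cells, and in 39.7%, 52.1%, 34.1% and 43.0% before thinning. Positive T-gated cells also held more: the mean per positive cell was 3.71, 8.36, 4.30 and 4.14 UMIs for Gzmk and 4.45, 8.16, 6.94 and 7.15 for Gzmm, before thinning. T-gated cells with at least 3 of the 9 genes made up 1.20%, 6.81%, 1.52% and 2.32% after thinning.

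Most Gzma, Gzmk, Gzmm and Nkg7 UMIs of the T gate came from cells that also carried NK receptor genes. In mice, NK-like and effector CD8 T cells are known to carry NK receptors, and whether the cells here were of these kinds was not tested. T-gated cells with at least 2 genes of the NK panel numbered 427, 449, 332 and 1076, or 14.2%, 22.7%, 14.8% and 19.6% of the gate. They held 64.6% to 77.3% of the gate's Gzma UMIs, 49.0% to 77.0% of its Gzmb UMIs, 70.9% to 80.8% of the gate's Gzmk UMIs, 77.0% to 84.8% of its Gzmm UMIs and 69.2% to 83.6% of its Nkg7 UMIs, but 30.8% to 44.6% of its Ctsw UMIs, 25.3% to 44.3% of its Prf1 UMIs and 23.6% to 55.5% of its Faslg UMIs. In them Gzmm stood at 350, 922, 549 and 675 CPM, with ratios to control of 2.64, 1.57 and 1.93. Gzmk stood at 169, 584, 125 and 184 CPM, a ratio of 3.46 (3.12 to 3.84) at 12 h, and 0.740 and 1.09 later. Nkg7 stood at 186, 502, 265 and 284 CPM, with ratios of 2.70, 1.43 and 1.53.

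T-gated cells with fewer of those receptors held much lower levels, and the 3 genes were also several times the control level at 12 h there. Gzmk stood at 14.4, 70.3, 6.43 and 14.0 CPM, 4.88-fold control at 12 h, and Gzmm at 21.7, 85.5, 22.5 and 38.0 CPM, 3.93-fold control at 12 h. Nkg7 stood at 17.2, 52.6, 17.7 and 17.4 CPM, 3.05-fold control at 12 h. In B-gated cells Gzmk stood at 27.4, 24.7, 9.64 and 27.5 CPM, Gzmm at 24.9, 31.2, 11.6 and 31.8 CPM, and Nkg7 at 20.2, 21.2, 7.19 and 23.1 CPM. The 3 genes were thus above the B level at 12 h in T-gated cells with fewer receptors, while at 0 h none of them was. Over the libraries a single B-gated cell held up to 59 UMIs of Gzmk, 47 of Gzmm and 34 of Nkg7, so 1 cell can weigh on a B level. At 96 h the Nkg7 ratio in these cells was 1.01 and the Gzmm ratio 1.75 at a level below 50 CPM, so neither call at 96 h was made without the receptor-bearing T cells, a split chosen after the data were seen. Ctsw stood at 182, 274, 180 and 192 CPM and Prf1 at 72.6, 82.998, 69.9 and 88.9 CPM.

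**Figure D3:**
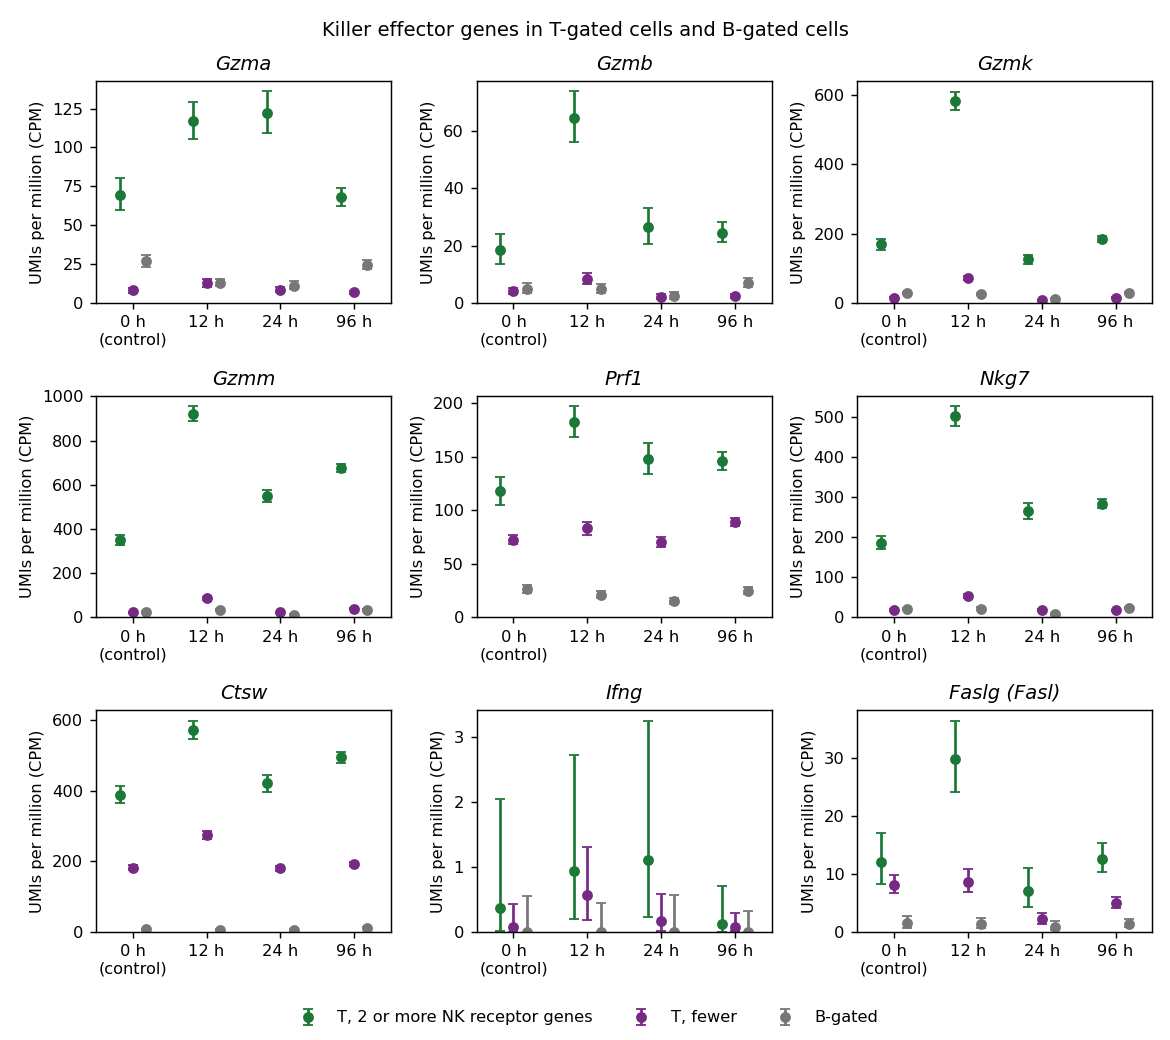
Level of each gene (CPM, linear axes that start at 0) by library in T-gated cells with at least 2 NK receptor genes (green), T-gated cells with fewer (purple) and B-gated cells (grey), with exact Poisson 95% intervals as bars. Gzmk, Gzmm and Nkg7 peak at 12 h in both kinds of T-gated cell, at 584, 922 and 502 CPM in the cells with receptors.

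By coreceptor, Cd8 T cells (a UMI of Cd8a or Cd8b and none of Cd4) numbered 1294, 1052, 813 and 2284 and held most of the T gate's UMIs of 7 members in every library. Their shares were 88.2% to 93.7% for Ctsw, 82.2% to 95.1% for Gzmm, 76.3% to 90.4% for Nkg7 and 72.2% to 90.3% for Gzmk. They were 57.5% to 87.7% for Gzma, 55.9% to 88.3% for Gzmb and 55.5% to 73.1% for Prf1. Faslg was the exception, at 31.4%, 67.6%, 47.8% and 48.5%, and Ifng had too few UMIs to place. Gzmm stood at 137, 503, 274 and 368 CPM in them, with ratios of 3.67, 2.003 and 2.69, all called higher. Gzmk stood at 62.9, 330, 56.9 and 95.3 CPM, 5.24-fold control at 12 h and 1.51-fold at 96 h. Gzma stood at 22.7, 62.4, 58.9 and 37.4 CPM, with ratios of 2.75 at 12 h and 2.60 at 24 h, and 1.65 at 96 h without reaching 50 CPM. Nkg7 stood at 75.1, 269, 138 and 150 CPM, with ratios of 3.59 and 1.84 at 12 h and 24 h and a ratio between 1.82 and 2.20 (the interval) at 96 h. Ctsw stood at 416, 575, 517 and 495 CPM, with ratios of 1.38, 1.24 and 1.19, none past 1.5-fold. The Ctsw call of the whole T gate at 12 h was therefore not made within Cd8 T cells, which were 43.1% of the gate at 0 h and 53.1% at 12 h.

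Prf1 and Faslg were also found in T-gated cells outside the Cd8 class. T-gated cells with neither Cd4 nor Cd8 assignment were 36.9% to 55.7% of the gate. They had UMIs of both coreceptors or of neither, and a cell without a UMI may still express a coreceptor. In them Prf1 stood at 72.3, 72.3, 62.1 and 80.2 CPM, which is 2.74 to 4.18 times the level of B-gated cells in the same libraries. Faslg in those cells was 7.42, 6.90, 3.67 and 5.09 times the B level, with the interval above 1 in each library. In Cd4 T cells, 180 to 485 per library, Prf1 stood at 37.4, 53.0, 57.8 and 76.5 CPM, with ratios to control of 1.41 (0.948 to 2.13), 1.54 (1.04 to 2.32) and 2.04 (1.47 to 2.90). The control value there rests on 43 UMIs. Across the whole T gate 7.53%, 8.93%, 7.82% and 8.94% of thinned cells had a Prf1 UMI, against 1.89%, 1.68%, 1.21% and 1.44% of thinned B-gated cells. Before thinning the Prf1 shares were 30.8%, 37.7%, 36.8% and 39.5% in T-gated cells and 4.75%, 5.80%, 4.84% and 5.07% in B-gated cells, and the mean positive T-gated cell held 1.38 to 1.78 UMIs before thinning.

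Set against NK-gated cells of the same library, T-gated cells held little of each member other than Ctsw. Over the 7 members other than Ctsw and Ifng, and with the libraries in order of time, the T level was 0.577% to 4.07%, 1.43% to 6.51%, 0.583% to 3.13% and 0.898% to 4.55% of the NK level. The B level was 0.577% to 0.988%, 0.454% to 0.825%, 0.204% to 0.554% and 0.678% to 1.11%, and the myeloid level 0.248% to 0.470%, 0.287% to 0.597%, 0.186% to 0.240% and 0.329% to 0.823%. Ctsw in T-gated cells was 81.5%, 95.7%, 91.9% and 49.0% of the NK level, and T-gated cells held 71.0% to 78.0% of all Ctsw UMIs of the kept cells. NK-gated cells held 67.0% to 77.9% of the Gzma UMIs and 52.7% to 71.2% of the Prf1 UMIs. Cells in no gate held 16.1%, 10.2%, 11.2% and 17.6% of the Gzma UMIs in order of time. For Prf1 they held 13.4%, 10.1%, 8.73% and 13.7%. What these cells were was not tested, so the NK gate and its share of kept cells may leave out some NK cells, unevenly by library.

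**Figure D4:**
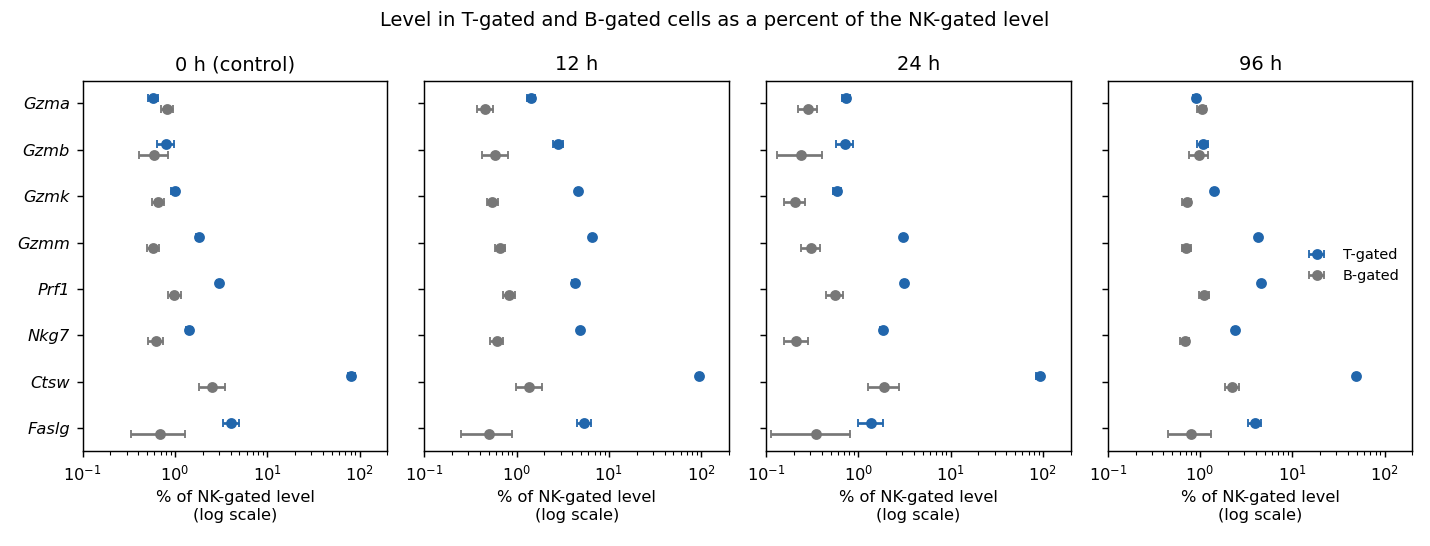
Level in T-gated and in B-gated cells as a percent of the level in NK-gated cells of the same library (log axis), for 8 genes, with Ifng left out for its low counts. Ctsw in T-gated cells lies at 49.0% to 95.7% of the NK level, and the other 7 genes at 0.577% to 6.51%.

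Markers of other cells moved between the same libraries. All 6 neutrophil markers set are named in the files, and they summed to 10.3 CPM at 0 h, 3072 at 12 h, 1846 at 24 h and 177 at 96 h in T-gated cells, with 2 of the 6 at 0 in the control library, and to 17.5, 4162, 3358 and 285 CPM in B-gated cells. In NK-gated cells they summed to 27.3, 2760, 1704 and 739 CPM. The 9 NK gate genes in the files, of 10 set, summed to 203, 275, 186 and 255 CPM in T-gated cells. The part of neutrophil RNA and of NK RNA in the T levels was not tested. Ncr1, a receptor that defines NK cells, stood at 0.603%, 1.41%, 0.560% and 1.07% of its NK level in T-gated cells, where Gzmm stood at 1.82%, 6.51%, 3.05% and 4.25% and Gzma at 0.577%, 1.43%, 0.735% and 0.898%. Other NK genes outside the 9 were nearer to Gzmm than Ncr1 was at 12 h. Tbx21 stood at 2.23%, 5.10%, 3.29% and 3.499% of its NK level, Klrb1a at 1.20%, 2.67%, 1.82% and 2.29%, and Klrg1 at 0.596%, 2.28%, 0.513% and 1.51%. Ncr1 and Klrb1a are genes of the NK gate, so their NK level is partly set by the gate. Gzmm, Gzma, Tbx21 and Klrg1 are not gate genes. Dividing-cell markers, 3 of 3 named, summed to 201, 134, 360 and 207 CPM in NK-gated cells and to 29.3, 65.0, 34.9 and 29.7 CPM in T-gated cells.

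Of the genes that work with the 9, taken over 7 lists, 0 of the 29 past the minimum in NK-gated cells were higher and 1 lower at 12 h, 0 of 30 higher and 1 lower at 24 h, and 4 of 31 higher and 0 lower at 96 h. In T-gated cells 3 of 17 were higher and 1 lower at 12 h, 0 of 16 higher and 1 lower at 24 h, and 1 of 15 higher and 1 lower at 96 h. The shares over all genes were 2.62% higher in NK-gated cells at 96 h and 4.31% higher in T-gated cells at 12 h, the 2 settings with the most genes called. Of the 13 calls, 7 were of genes under 50 CPM in 1 of the 2 libraries compared, which passed the minimum only through the library where they were high. For Gzmbl3, Serpinb9, Ccl4, Socs1, Gata3, Id2 and, in NK-gated cells, Lef1, being called was thus partly set by the rule. The granule release machinery, which docks and fuses the granules (8 of 10 genes named in the files), had 3 genes past the minimum in NK-gated cells and 2 in T-gated cells, and 0 were called at any time. Among other granule proteases and granule content (8 of 15 named) 1 of 5 was lower in NK-gated cells at 12 h, Gzmbl3, with 32.8 CPM against 66.5 in the control library. Its reads may be shared with those of Gzmb. Among granzyme inhibitors (3 of 6 named) Serpinb6b was higher in NK-gated cells at 96 h, with 442 CPM against 283, a ratio of 1.56, and Serpinb9, the inhibitor of granzyme B, was higher in T-gated cells at 12 h, with 71.3 CPM against 33.8, a ratio of 2.11.

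Among death ligands and cytokines (9 of 10 named) the chemokine Xcl1, which attracts cross-presenting dendritic cells, was higher in NK-gated cells at 96 h, with 236 CPM against 147 and a ratio of 1.61. In T-gated cells 2 were higher at 12 h. Ccl5, a chemokine stored by effector T and NK cells, had 1776 CPM against 267, a ratio of 6.65, and Ccl4 had 59.1 CPM against 23.4, a ratio of 2.52. At 96 h Ccl5 had 536 CPM against 267, a ratio of 2.01. In NK-gated cells Ccl5 stood at 24522, 26434, 26874 and 21728 CPM at 0, 12, 24 and 96 h. The death and interferon gamma receptors (5 of 6 named) had 1 gene past the minimum in each gate and 0 called.

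Of the 12 transcription factors, all named, 7 or 8 passed the minimum in NK-gated cells, and Lef1 was higher at 96 h, with 52.2 CPM against 21.3 and a ratio of 2.45. In T-gated cells 3 passed at each time. Lef1 was lower at 12 h, with 373 CPM against 562 and a ratio of 0.664. Gata3 was lower at 24 h, with 48.1 CPM against 83.2 and a ratio of 0.579. Id2, a repressor of E proteins that effector lymphocytes need, was lower at 96 h, with 34.4 CPM against 79.7 and a ratio of 0.432. Of the 14 interferon gamma response genes, all named, 7 or 8 passed in NK-gated cells, where Irf8 was lower at 24 h (116 CPM against 190, a ratio of 0.613) and Socs1, a feedback inhibitor, was higher at 96 h (57.2 CPM against 37.6, a ratio of 1.52). None of the 4 or 5 that passed in T-gated cells was called.

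Across the 16 sums of 4 classes and 4 libraries, the genes most like each member were mostly other NK genes. Likeness was Pearson r of log2(CPM + 1) among 3773 genes, with no p because the sums share libraries and classes. Because 4 classes enter the 16 sums, r mostly reflects the differences between classes and says little of likeness over time. Klri2, Klre1 and Ncr1 are also genes of the NK gate. Gzma was closest to Klrg1, Tcte1 and Klri2, Gzmb to Klrc3, Gzmk and Ncr1, and Gzmk to Ccl5, Klrc3 and Gzmb. Gzmm was closest to Il2rb, Prf1 and Nkg7, Prf1 to Gzmm, Klre1 and Ccl4, Nkg7 to Ccl5, Tbx21 and Gzmk, and Faslg to Ccl5, Ccl4 and Gzmk. Ctsw stood apart from the other members, with the T cell signalling genes Lck and Cd247 and the receptor Tnfrsf18 as its closest. All these r lay between 0.987 and 0.996, and Ifng was not ranked.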

How the data were processed

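The authors deposited UMI counts, not normalized, as 1 matrix of genes by cells for each of the 4 libraries. The submitters' processing notes name Cell Ranger, Seurat and mm10, with roles and versions not given in the sources used here. No deposited cell had fewer than 301 genes or more than 15.0% mitochondrial UMIs, so the authors had removed some cells. The columns of the matrices that match no sample number 0.

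A cell was kept with 200 or more genes and no more than 10% mitochondrial UMIs, and doublets marked by Scrublet, run per library in scanpy 1.11.5, were removed. Gates were set on raw UMIs with at least 2 marker genes, and a cell in several gates (698 to 782 per library) or in none (1131 to 1278) was left out of the classes. The markers of the B and myeloid gates are not reported here. The counts of each class were summed by library and scaled to CPM. Levels have exact Poisson intervals, ratios exact conditional binomial intervals and shares exact binomial (Clopper-Pearson) intervals, all at 95%. Where a count was 0, the limit is that of 3 counts. In a ratio of a listed gene against a library at 0, those 3 counts stand for the library. For shares, cells were thinned to 1000 UMIs and shallower cells left out, at most 3 per class and library among NK-gated and T-gated cells. Summed levels cannot tell fewer positive cells from less RNA per cell, so shares are given beside them.

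The members and lists were chosen with earlier results of these data known. All 9 members are named. From each list the rule takes the genes with the largest and the smallest ratio in each gate and time, of which those at least 1.5-fold from control are printed, and Ccl4 was added after its values were seen, as were Klrg1, Zeb2, Lef1 and Serpinb6b in NK-gated cells split by Gzma. For likeness the rule takes 3 genes per member. Ratios and intervals were tested on simulated data with known fold changes. The simulated counts were Poisson, as the intervals assume, so UMIs gathered in few cells were not part of that test. Alternatives were cell filters, gates, scaling, thinning, the fold and the low-count minimum, plus 3 chosen after seeing the data (T-gated cells without NK receptors, Cd8 T cells, and cells of both NK and myeloid gates kept as NK). Software was python 3.11.15, numpy 2.4.6, scipy 1.17.1, pandas 2.3.3, anndata 0.12.19, scikit-learn 1.9.0 and matplotlib 3.10.9.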

Additional observations from a re-analysis of the deposited data

Results flagged for a closer look

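For 6 pairs of gene and time the T-gated and NK-gated cells differed from the control library in opposite directions, with counting intervals that exclude 1 in both. Gzma at 12 h was 2.17 times control in T-gated cells (1.87 to 2.52), though below 50 CPM there, and 0.876 times control in NK-gated cells (0.848 to 0.905). Prf1 at 12 h was 1.36 times control in T-gated cells (1.26 to 1.47) and 0.965 in NK-gated cells (0.931 to 0.9996). Gzmk at 24 h was 0.672 times control in T-gated cells (0.593 to 0.761) and 1.14 in NK-gated cells (1.11 to 1.17). Gzmm at 24 h was 1.49 times control in T-gated cells (1.38 to 1.60) and 0.885 in NK-gated cells (0.860 to 0.912). Gzmk at 96 h was 1.33 times control in T-gated cells (1.22 to 1.46) and 0.930 in NK-gated cells (0.904 to 0.958). Prf1 at 96 h was 1.28 times control in T-gated cells (1.20 to 1.36) and 0.845 in NK-gated cells (0.814 to 0.877). With 1 library per time the difference between the gates was not tested, and the intervals cover counting error only.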

How the results depend on the processing

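No paired analysis was possible because each group has 1 library. No ratio that was called turned its direction under any alternative run. The log2 ratio of Ctsw in NK-gated cells at 96 h, 1.02, ran from 0.93 with 1 Cd3 UMI allowed in the gate to 1.46 with at most 5% mitochondrial UMIs. Members at least 1.5-fold from control in NK-gated cells, 0, 0 and 1 at 12, 24 and 96 h, became 1, 2 and 2 with at most 5% mitochondrial UMIs, which left 16 control NK-gated cells, and 1 at 12 h and 2 at 96 h without the low-count minimum. In T-gated cells, with 4, 0 and 2, the count at 12 h became 8 without the low-count minimum and 3 with a fold of 2, which Ctsw, at 1.62, did not reach. At 24 h it became 3 without that minimum, 3 with at most 5% mitochondrial UMIs (64 control T-gated cells), 1 with median-of-ratios scaling, 2 with the B-gated level subtracted, 1 with a T gate of 3 Cd3 genes and 3 in Cd8 T cells. At 96 h it became 5 with at most 5% mitochondrial UMIs, 1 with a fold of 2, 0 with a T gate of 1 Cd3 gene that left NK receptor cells out, and 0 in T-gated cells without NK receptors. The T share was 23.8%, 19.2% and 40.6% at 0, 24 and 96 h with no cell filter, and 25.3% at 0 h and 41.3% at 96 h with doublets kept. With at most 5% mitochondrial UMIs the NK share was 2.77%, 9.42%, 7.53% and 13.5% at 0, 12, 24 and 96 h and the T share 11.1%, 16.9%, 12.4% and 40.9%. The cause of these moves was not tested, apart from fewer cells or a changed minimum where the alternative sets it. In the counts that follow, a value moved when it fell outside the main setting's counting interval. The counting error of the alternative itself, larger where few cells were left, was not part of this rule. Of 54 log2 ratios, 8 with doublets kept, 10 with median-of-ratios scaling, 3 with a mean over cells and 0 with no cell filter moved. So did 46 of 53 with at most 5% mitochondrial UMIs and 15 of 51 with the B-gated level subtracted. Of the 27 of 1 gate, 21 moved with cells of the NK and myeloid gates kept as NK, 20 in Cd8 T cells, 19 without NK receptors, 18 with the T gate of 1 Cd3 gene, 7 with 3 Cd3 genes, 1 with 1 Cd3 UMI allowed in the NK gate and 0 with 3 NK markers. Of 72 shares of positive cells, 66 moved without thinning and 60 with thinning to 2000 UMIs, which set the depth. Depth limits Ifng, with at most 11 UMIs in a gate. The 50 CPM minimum left Gzma, Gzmb and Faslg uncalled in T-gated cells.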
